A study of Homo sapiens with 12 samples.

Results

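Total RNA of human embryonic stem cells was compared with total RNA of the neural progenitor cells made from them, and the comparison concerns 6 of the 12 libraries of the series, chosen by their labels as the libraries of rRNA-depleted total RNA. The 3 stem cell libraries (ESC) came from the line HUES8, kept undifferentiated on Matrigel in mTeSR1 medium. The 3 progenitor libraries (NPC) came from HUES8 cells given 7 days of neural induction by dual SMAD inhibition. SB431542 at 2.5 uM, a blocker of the receptors for activin, Nodal and TGF-beta, and LDN193189 at 0.05 uM, a blocker of BMP receptors, were in the induction medium, and SB431542 was left out over the final 2 days. That medium held N2 and B27 without vitamin A in place of mTeSR1, so the states differ in medium as well as in inhibitors and time. Both groups carried the wild-type genotype and stem from this single line. The labels do not say whether replicates were separate cultures, so p-values measure only the spread between these libraries, which may be technical. The remaining 6 libraries, of ribosome-bound RNA, were not used.

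Blocking both branches of SMAD signalling turns pluripotent cells towards neural ectoderm, since Nodal and activin signals otherwise keep them pluripotent or lead to mesendoderm, and BMP signals lead to epidermis and extraembryonic fates. Early neural ectoderm is patterned along its axes by WNT, Hedgehog, FGF, BMP and retinoid signals, which are read out by homeobox, SOX, PAX and zinc finger transcription factors. Progenitors in this tissue also change the adhesion and guidance molecules on their surface and the long noncoding RNAs and miRNA precursors they transcribe.

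The labels were first checked against the markers of each state. POU5F1, the POU factor at the core of pluripotency, stood at 1023, 1239 and 564 CPM in ESC replicates 1, 2 and 3 and at 22.7, 22.3 and 19.7 CPM in NPC, where CPM stands for counts scaled to a common library size with TMM factors. NANOG stood at 445, 406 and 447 CPM in ESC and 1.16, 1.2 and 1.34 CPM in NPC. PAX6 and SOX1, which mark early neural ectoderm, went from 0.766, 0.798 and 0.562 to 41.6, 41.7 and 43.6 CPM and from 3.17, 2.99 and 2.65 to 49.3, 47.1 and 44.1 CPM. Each of these 4 genes separated the groups without overlap, in the direction of the labels, as did 32.8% of all tested genes with NPC higher and 29.9% with NPC lower. In bulk RNA, fewer cells expressing a gene and less RNA per cell cannot be told apart. Below, triplets of levels are always given in the order of replicates 1, 2 and 3.

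Libraries held 19529738 to 35117370 counts, and a count of 0 in a library allows up to 3 counts, or 0.0838 to 0.153 CPM (counting error only). RNA_ESC replicate 3 stood apart: its log2 CPM correlated across genes, which are not independent replicates, at Pearson r = 0.976 and 0.972 with the other ESC libraries, against 0.992 between those and 0.994 between NPC libraries. In that library 7.02% of the tested genes lay more than 2-fold from the mean of the other ESC libraries. Counts per list without that library are given where they move by over 1.5 times. For single genes such values are given only in part. Of 351 single-gene differences, 28 gained a call without that library, 2 turned around and 1 lost its call. A gene said not to pass may therefore pass without it.

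Of 59050 gene symbols, 18631 passed the filter on low counts and were tested (edgeR quasi-likelihood test, Benjamini-Hochberg adjustment, threshold 0.05). Among these, 26.4% were higher and 26.2% lower in NPC, and 14.4% in each direction differed by at least 2-fold. Without RNA_ESC replicate 3 the numbers called rose from 4913 to 6757 higher and from 4878 to 6710 lower. The median log2 difference of all tested genes was 0.03. The counts for the families below are to be read against these shares, and a list near them shows nothing about its members. Genes named as rises or falls of a list differed at least 2-fold without overlap of the groups, and averaged 5 CPM or more in one state, unless stated otherwise. The lists overlap where a gene has several roles, as ETV4 and GLI1 do.

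Across 352 tested transcription factors of 18 families, 137 were higher (38.9%) and 117 lower (33.2%) in NPC. The plot of list shares shows that the families went different ways: PAX, LIM and TFAP2 lists lay far to the higher side, and HOX and ETS lists to the lower side. TALE factors lay above the shares of all genes on both sides (61.1% higher, 33.3% lower). Among the signalling lists in the same plot, WNT ligands and receptors lay to the higher side and ERK feedback genes to the lower side.

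**Figure D1:**
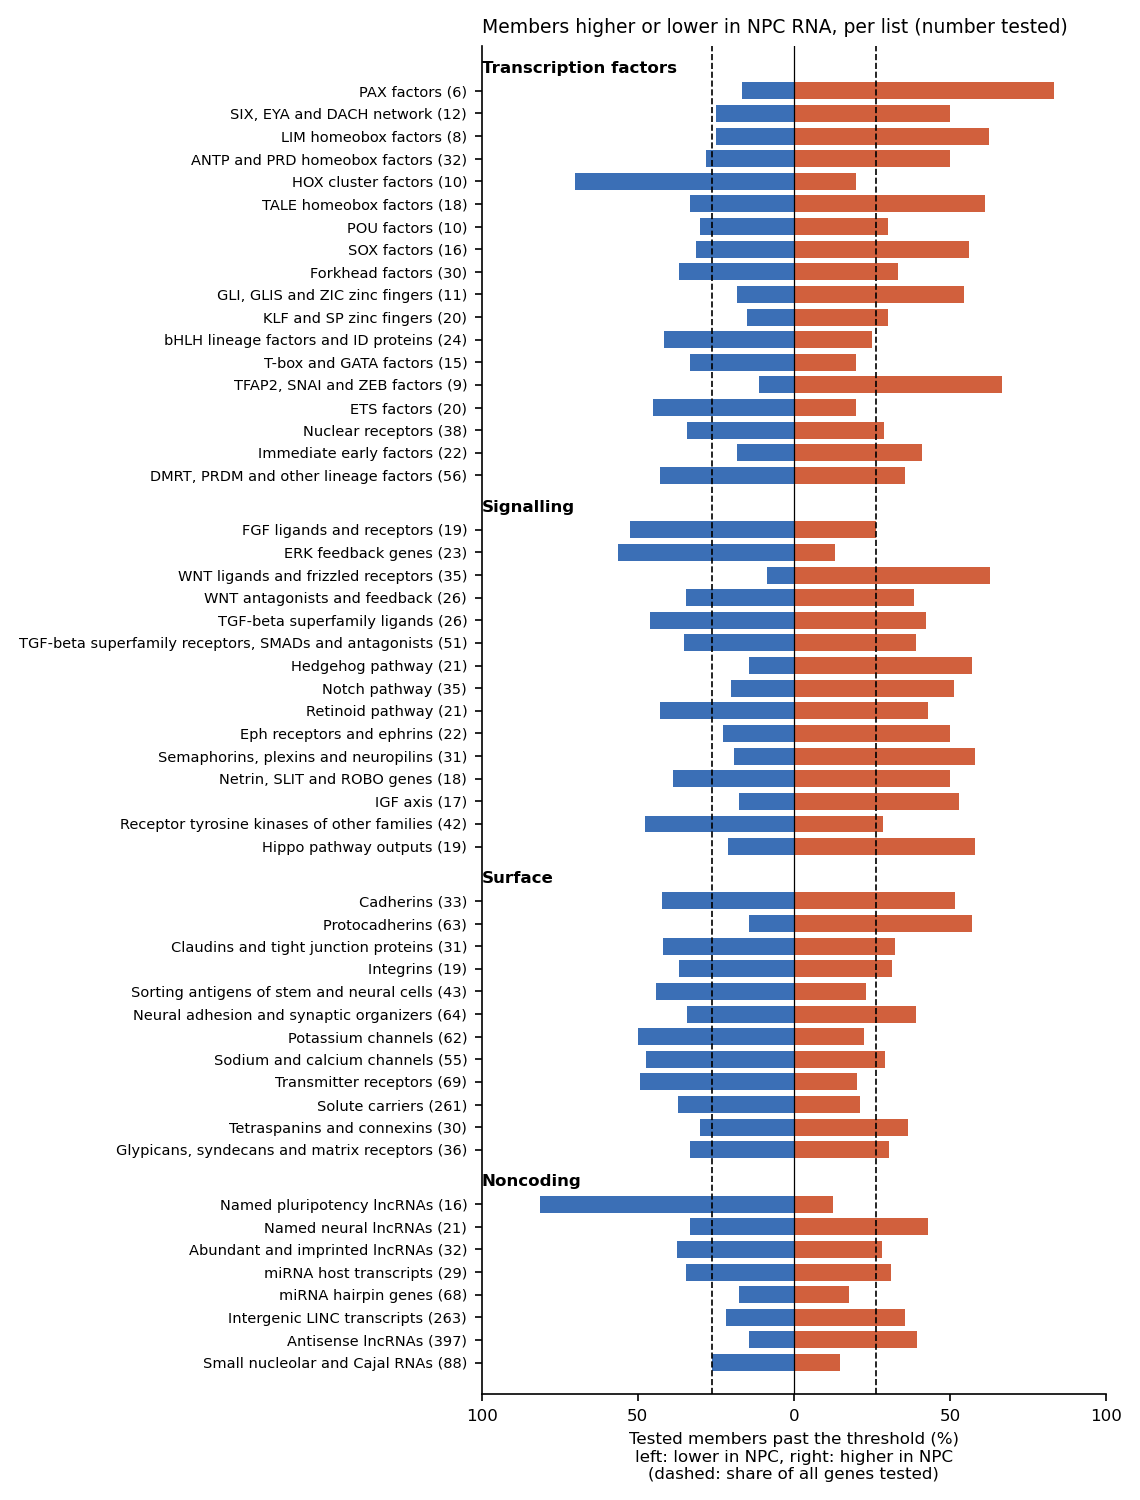
Share of tested members (%) that were higher (orange, right) or lower (blue, left) in NPC RNA past the threshold, per list, with the number tested in brackets; dashed lines mark the shares over all genes tested, 26.4% higher and 26.2% lower. Named pluripotency lncRNAs reach furthest to the left (81.2%) and PAX factors furthest to the right (83.3%).

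Paired-box factors, which specify dorsal neural tube, eye and midbrain-hindbrain territories, were nearly all higher in NPC. Of 6 tested members, 5 rose and 1, PAX5, fell. PAX2, a factor of the midbrain-hindbrain boundary, eye stalk and kidney, stood at 0.255, 0.518 and 0.306 CPM in ESC and 18.5, 17.2 and 16 CPM in NPC, a 45.9-fold rise (log2 difference 5.52 ± 0.24, SE; adjusted p = 1.47e-06). PAX3, which acts in dorsal neural tube and crest, rose from 0.169 to 90.1 CPM, the largest change of the list (513-fold). PAX5, known from B cells and the midbrain-hindbrain boundary, went the other way, at 31.4, 31.7 and 27.4 CPM in ESC and 6.68, 6.2 and 6.2 CPM in NPC, 4.74-fold lower. No ESC and NPC values overlapped for these 3 genes.

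LIM homeobox factors, which pattern the forebrain and the dorsal midline, rose in 5 of 8 tested members and fell in 2, neither of which met the conditions for naming. LMX1A, a determinant of the roof plate and of midbrain dopamine neurons, was near the counting floor in ESC at 0.0511, 0.0399 and 0.153 CPM and reached 18, 16.3 and 17.4 CPM in NPC. Its fitted log2 rise was 7.71, and 8.45 without RNA_ESC replicate 3, the ESC library in which it was highest. LHX5, an early forebrain factor, rose 13.6-fold, from 8.32, 10 and 4.8 to 111, 111 and 94 CPM, with ESC replicate 3 lowest. LMX1B, the close relative of LMX1A, stood at 29.2, 31.3 and 17.9 CPM in ESC and 28, 26.5 and 26.3 CPM in NPC and did not pass (adjusted p = 0.872), so its groups overlapped where those of LMX1A lay far apart.

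Among 32 ANTP and PRD homeobox factors outside the HOX clusters, 16 rose and 9 fell. The largest rise that met the conditions for naming was that of EMX2, a factor of the dorsal forebrain, with counts in a single ESC library (0, 0.12 and 0 CPM) and 6.6, 6.26 and 5.34 CPM in NPC, a ratio of 129-fold (95% counting interval 44 to 628). The fitted log2 difference of EMX2 was 6.89, and 10.35 without RNA_ESC replicate 2. DLX5, of the ventral forebrain and the border of the neural plate, rose from 0.0511, 0.199 and 0 to 9.04, 9.36 and 8.1 CPM (log2 6.50, and 8.17 without RNA_ESC replicate 2). MSX1, a BMP-responsive factor of that border, rose 37.7-fold to 7.21 CPM. On the falling side stood MIXL1, a primitive streak factor, at 7.2, 6.14 and 4.75 CPM in ESC and 0.15, 0.112 and 0.0594 CPM in NPC, 55.4-fold lower. NKX1-2, a factor of caudal axial progenitors, went from 163, 163 and 167 to 5.07, 4.47 and 4.36 CPM and fell by 5.15 ± 0.12 on the log2 scale (SE, adjusted p = 1.22e-07). TLX1 fell 11.2-fold. PRRX2 did not pass, and its ESC values of 10.1, 13 and 1.99 CPM ranged wider than the difference from NPC (7.84, 7.65 and 5.67 CPM).

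The HOX clusters, which code position along the trunk, were mostly silent: of 39 HOX genes listed, 10 had no count in any library and 10 were tested. Of those 10, 7 fell and 2 rose, with a median log2 difference of −4.69, or −3.32 when the 5 members with 0 counts in a group are set at their bound. Leaving out RNA_ESC replicate 1, RNA_NPC replicate 1 or RNA_NPC replicate 2 left 1 of the rises. Levels were low throughout. HOXB13, at 11.5, 14.2 and 8.88 CPM in ESC and 1.95, 1.7 and 2.7 CPM in NPC, was the largest fall that met the conditions for naming, and HOXA13 (1.29 to 1.46 CPM) did not pass.

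TALE homeobox proteins, the DNA-binding partners of HOX and PAX factors, moved in 17 of 18 members, 11 up and 6 down. MEIS2, a factor of the forebrain and neural crest, rose from 0.562, 0.439 and 0.715 to 18.8, 19.7 and 20.9 CPM (34.8-fold). PKNOX2 rose 15.8-fold to 48.1 CPM and MEIS3 3.7-fold to 150.0 CPM. IRX4, known from the heart ventricle, fell most among members that met the conditions for naming (5.21-fold, with ESC replicate 3 at 9.19 CPM against 20.6 and 24.5). TGIF2, a repressor of SMAD targets, was level at 256, 244 and 221 CPM in ESC and 256, 259 and 245 CPM in NPC.

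Among SIX3, related homeobox factors and their EYA and DACH cofactors, which act in eye, placode and kidney, 6 of 12 members rose and 3 fell, or 7 and 5 without RNA_ESC replicate 3. DACH1, a transcriptional cofactor, made the largest step, from 0.511, 0.239 and 0.408 to 54.4, 54.8 and 57.8 CPM. SIX3, a determinant of the anterior forebrain and eye field, was already present in ESC at 10.5, 12.3 and 7.91 CPM and rose to 66.5, 65.7 and 57.7 CPM. SIX4 (60.6 to 64.6 CPM) did not pass.

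SOX factors, many of which mark neural progenitors, rose in 9 and fell in 5 of 16 members. SOX5, which acts in neural progenitors and crest, rose from 2.55, 3.51 and 3.57 to 39.3, 41.7 and 43.4 CPM (12.9-fold), close to SOX1 (15.9-fold), and SOX21 rose 7.0-fold. SOX8 was the largest fall that met the conditions for naming (2.29-fold), while SOX2, which both states use, stood at 101, 121 and 100.3 CPM in ESC and 110.3, 122 and 113 CPM in NPC and did not pass. GLI, GLIS and ZIC zinc fingers rose in 6 of 11 members. The 2 falls became 4 without RNA_ESC replicate 3 and 1 when any single NPC library was left out. GLIS3 rose 14.3-fold to 6.09 CPM and ZIC4, a dorsal neural factor, 3.29-fold. TFAP2, SNAI and ZEB factors, which govern ectoderm and epithelial-mesenchymal change, rose in 6 of 9 members and fell in 1, SNAI3 (3.29-fold). TFAP2B gave the largest rise, 447-fold to 64.6 CPM, a fold of uncertain size because its ESC level lay near the counting floor. ZEB2, a SMAD-binding repressor needed in neural ectoderm, rose from 0.46, 0.598 and 0.868 to 38.5, 38.6 and 41.1 CPM. TFAP2A rose 36.6-fold, while TFAP2C was at 55.7, 58 and 63.1 CPM in ESC and 69.6, 67.8 and 68.5 CPM in NPC and did not pass (adjusted p = 0.0989).

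Forkhead factors divided, with 10 higher and 11 lower of 30 tested. The 10 became 6 without RNA_ESC replicate 2 or RNA_NPC replicate 3. FOXK1 rose 2.15-fold to 223 CPM. FOXH1, the partner through which SMAD2 and SMAD3 bind DNA in Nodal signalling, fell from 49.2, 58.6 and 19.8 to 6.27, 6.59 and 4.96 CPM. The FOXO group did not move as one: FOXO1 and FOXO4 fell 4.75-fold and 4.76-fold, whereas FOXO3 rose 2.08-fold, with no overlap of the groups in any of them. FOXK2 (128 to 109.9 CPM) did not pass.

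Nuclear receptors rose in 11 and fell in 13 of 38 members. NR2F2, an orphan receptor of early neural and mesenchymal tissue, rose from 0.204, 0.16 and 0.357 to 17, 14.9 and 16.8 CPM (67.8-fold). NR3C1, the glucocorticoid receptor, took the opposite course, from 23.5, 20.2 and 30.6 to 0.525, 0.754 and 0.801 CPM (35-fold). THRB, a thyroid hormone receptor, fell 17.4-fold, and NR5A2, an orphan receptor of the early embryo that can stand in for POU5F1 in reprogramming, 14.8-fold. RARG did not pass at 65.9, 66.9 and 43.6 CPM in ESC and 52.6, 48.5 and 46.1 CPM in NPC, although ESC replicate 3 lay apart from the other ESC values.

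ETS factors, many of which respond to ERK, fell in 9 and rose in 4 of 20 members, or 10 and 7 without RNA_ESC replicate 3. ERG, known from endothelium, went from 9.85, 9.37 and 11.5 to 0.113, 0.112 and 0.089 CPM (94.1-fold). ETV4, a direct readout of FGF signalling, fell from 382, 415 and 293 to 58.2, 57.1 and 50.7 CPM. ETS1 fell 5.31-fold, and the epithelial factor ELF3 was the largest rise that met the conditions for naming, at 2.26-fold. ETV3 stood at 48.4 to 60.4 CPM and did not pass.

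Neurogenic and inhibitory bHLH factors fell in 10 and rose in 6 of 24 members. OLIG3, of the dorsal hindbrain and spinal cord, dropped from 31.8, 33.1 and 27.2 to 0.863, 1.17 and 1.25 CPM. TAL1, a blood factor, fell 13.6-fold and BHLHE40 3.85-fold. The largest rise that met the conditions for naming was ID4, an inhibitor of bHLH dimers in neural progenitors, from 8.27, 8.65 and 10.6 to 34.4, 33.4 and 39.8 CPM. NEUROG2, a proneural factor, is named here after its values were seen: it had 0 counts in all ESC libraries and 0.938, 1.2 and 1.01 CPM in NPC, at least 22.7-fold higher against 3 counts over the group. TCF3, the general partner of these factors, was at 228, 253 and 143 CPM in ESC and 235, 230.2 and 201 CPM in NPC and did not pass.

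POU factors rose in 3 and fell in 3 of 10 members, near the share over all genes. POU3F4, a neural and inner ear POU factor, was the largest fall: 8.88, 7.54 and 6.02 CPM in ESC and 0, 0 and 0.0594 CPM in NPC, a ratio of 359.9-fold (95% counting interval 99.1 to 2980.0), with a fitted log2 difference of −8.20, or −10.56 without RNA_NPC replicate 3, the single NPC library with counts. POU2F1 stood at 154, 141 and 211 CPM in ESC and 158, 163 and 167 CPM in NPC and did not pass, but was 0.15 higher on the log2 scale without RNA_ESC replicate 3 (adjusted p = 0.0412). T-box and GATA factors of mesoderm and endoderm fell in 5 and rose in 3 of 15 members, and no rise met the conditions for naming. TBX3 fell from 11.4, 11.6 and 11.2 to 0.788, 0.559 and 0.445 CPM and TBX5 from 23.1, 26.8 and 23.5 to 6.9, 8.02 and 7.27 CPM. MGA (219.7 to 267 CPM) did not pass. Of 20 KLF and SP factors 6 rose, 3 fell and 11 did not pass, while 7 rose and 7 fell of 21 tested without RNA_ESC replicate 3. KLF12 fell 3.61-fold and KLF4, a reprogramming factor, 3.58-fold, whereas KLF11 rose 2.41-fold. SP1 was level at 265 to 267 CPM.

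The list of immediate early factors, only some of which report recent growth factor input, rose in 9 and fell in 4 of 22 members. Without RNA_ESC replicate 3 the counts were 10 and 9. Among members that met the conditions for naming MAF rose most, from 5.72, 5.62 and 7.61 to 56.2, 57.4 and 55.5 CPM. EGR1, a first responder to ERK, rose 5.26-fold to 72.4 CPM and FOSL2 3.09-fold. JUN and IER3 fell 2.32-fold and 2.33-fold, and IER2 did not pass at 174, 182 and 87.1 CPM in ESC and 141, 147 and 127 CPM in NPC. The remaining list of DMRT, PRDM and other lineage factors rose in 20 and fell in 24 of 56. DMRT3 made the largest rise that met those conditions (247-fold, to 20.3 CPM), from an ESC level near the counting floor, so the size of its fold is uncertain. ZFHX4, a large zinc finger homeobox protein, went from 7.66, 7.82 and 7.61 to 300.1, 320.1 and 318 CPM. BCL11A, a repressor best known from globin switching and cortex, went from 49.8, 47.8 and 46.9 to 0.488, 0.95 and 1.1 CPM, the largest such fall. PRDM14, which guards the naive and primordial germ cell state, fell 32.9-fold, and UTF1 fell from 17.7, 19.8 and 2.81 to 0.525, 0.559 and 0.594 CPM. LIN28A, an RNA-binding protein kept with these factors, did not pass, at 4720.0 and 4469 CPM.

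**Figure D2:**
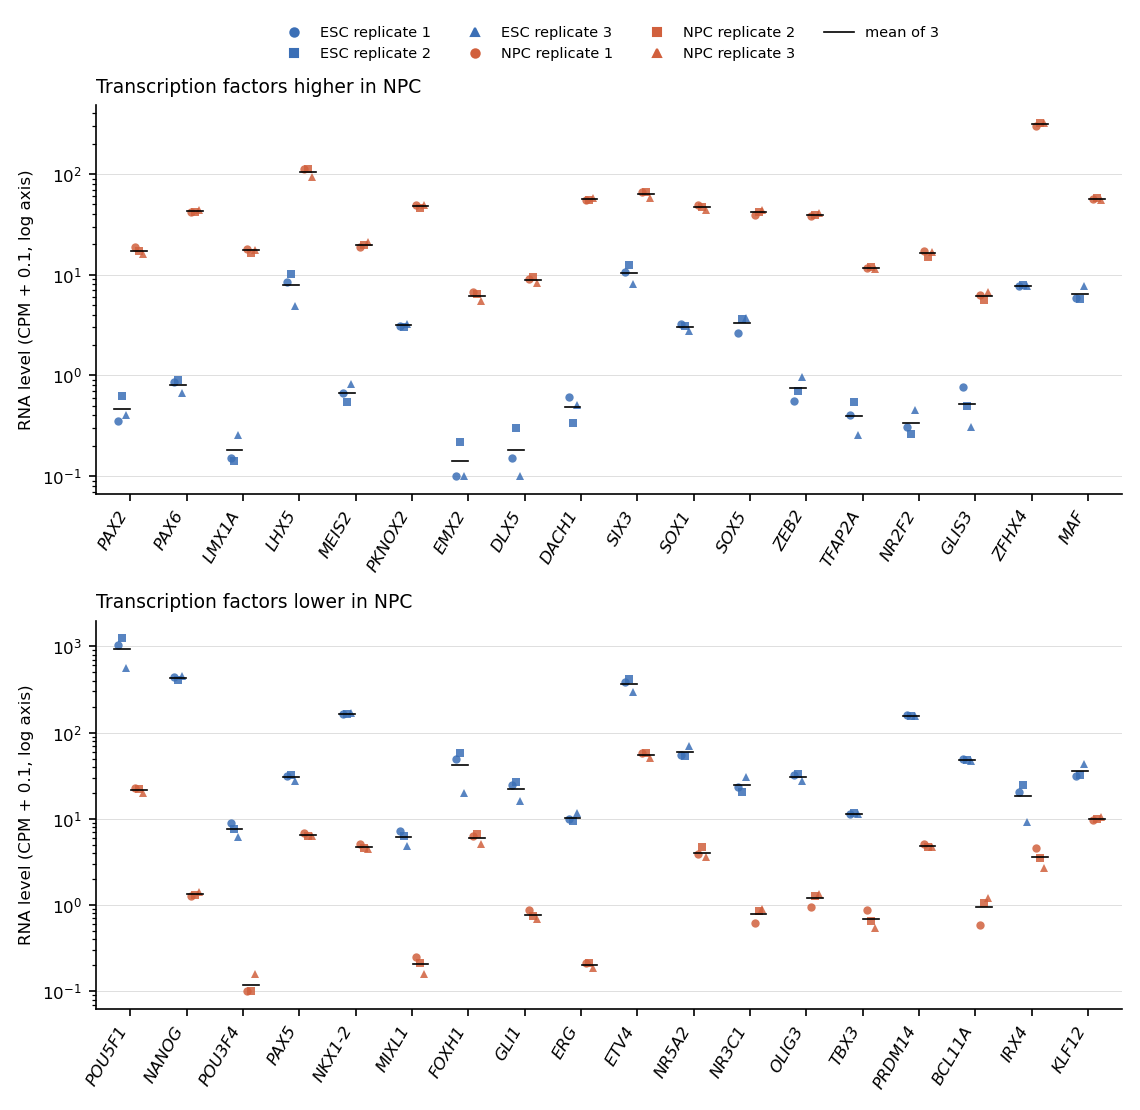
RNA level per library (CPM with 0.1 added, log axis) of 18 transcription factors higher in NPC (top) and 18 lower (bottom); blue points are ESC, orange points NPC, marker shapes are replicates 1 to 3 and bars are means. In each gene the 3 NPC points lie on one side of the 3 ESC points; POU5F1, FOXH1 and IRX4 show ESC replicate 3 (triangle) below the other ESC libraries.

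Signalling genes were next. Of 406 tested members of 15 pathway lists, 180 rose (44.3%) and 129 fell (31.8%). The ligands and the co-receptor of the Nodal branch, which SB431542 blocks at its receptors, were lower. NODAL went from 37.3, 37.5 and 26.4 to 0.15, 0.168 and 0.178 CPM and GDF3, a co-ligand of Nodal, from 94, 97.6 and 78.3 to 0.225, 0.0838 and 0.148 CPM. TDGF1, the co-receptor that Nodal needs, fell from 694, 657 and 737 to 2.14, 2.26 and 3.32 CPM. LEFTY1 and LEFTY2, feedback antagonists of Nodal chosen here after their values were seen, held 4.54, 5.86 and 3.22 and 2.3, 1.67 and 1.74 CPM in ESC. In NPC they held 0, 0.0279 and 0.0297 and 0, 0 and 0.0594 CPM, ratios of 224-fold (95% counting interval 61.4 to 1856) and 90.5-fold (95% counting interval 24.5 to 756). The activin subunit INHBB, also chosen after its values were seen, had 0 counts in all NPC libraries against 1.43, 0.678 and 0.664 CPM in ESC, at least 28.9-fold lower. PMEPA1, a TGF-beta target that damps SMAD signalling, fell from 51.6, 53.3 and 49.5 to 2.51, 3.77 and 2.4 CPM. ACVR2B, a receptor for activin and Nodal, stood at 326, 311 and 412 CPM in ESC and 297, 312 and 319.6 CPM in NPC and did not pass (adjusted p = 0.254).

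Several BMP ligands rose in NPC, along with secreted BMP antagonists. BMP2 rose from 5.87, 5.82 and 5.82 to 157, 152 and 157 CPM (log2 4.73 ± 0.11, SE; adjusted p = 1.22e-07) and BMP4 from 7.56, 7.02 and 5.05 to 19.4, 19 and 20.8 CPM. BMP5 had counts in 1 ESC library (0, 0.12 and 0 CPM) and 8.18, 8.91 and 8.34 CPM in NPC, a ratio of 182-fold (95% counting interval 62.1 to 885). Its fitted log2 rise was 7.38, and 10.83 without RNA_ESC replicate 2. GDF7, a roof plate ligand, fell 2.07-fold. GREM1, a BMP trap, rose from 1.12, 1.32 and 2.19 to 247, 241 and 267 CPM, and BMPER, another extracellular BMP modulator, from 0.511, 0.957 and 0.868 to 35.5, 36 and 38.2 CPM. RGMA, a BMP co-receptor, rose 3.69-fold. VWC2, a secreted BMP antagonist of neural tissue, went against these, from 12.3, 12.5 and 12.6 to 0.188, 0.14 and 0.0594 CPM. Over the whole lists, ligands rose in 11 and fell in 12 of 26, and receptors, SMADs and antagonists rose in 20 and fell in 18 of 51, so these lists changed in both directions at once.

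WNT ligands, frizzled receptors and their co-factors were higher in NPC in 22 of 35 members and lower in 3 (5 without RNA_ESC replicate 3), with a median log2 difference of 0.78 against 0.03 over all genes. WLS, the carrier that brings WNT proteins to the cell surface, rose from 9.5, 8.29 and 8.78 to 623, 622 and 625 CPM, a difference of 6.14 ± 0.11 on the log2 scale (SE, adjusted p = 4.56e-08). The ligands WNT7B and WNT4 went from 1.38, 1.52 and 0.562 to 28, 27 and 22.4 CPM and from 0.868, 0.997 and 0.715 to 12.8, 10.6 and 11.5 CPM. WNT3, the ligand of the primitive streak, fell from 15.2, 17.1 and 15.6 to 2.44, 2.96 and 2.73 CPM, and the receptor FZD4 fell 2.02-fold. LRP6, the shared co-receptor, was at 160.2, 141 and 213 CPM in ESC and 198, 201 and 213 CPM in NPC and did not pass. Antagonists and modulators rose in 10 and fell in 9 of 26. RSPO3, a secreted enhancer of WNT reception, rose 143-fold to 16.2 CPM, a fold of uncertain size because its ESC level lay near the counting floor. FRZB and WIF1, secreted traps for WNT, rose 21.5-fold and 8.91-fold. SHISA3, which holds immature frizzled and FGF receptors back in the cell, went from 14.1, 12.8 and 13.9 to 0.075, 0 and 0 CPM, a ratio of 652-fold (95% counting interval 179.9 to 5389). The fitted log2 difference of SHISA3 was −9.06, with −11.51 without RNA_NPC replicate 1 and −8.46 without RNA_NPC replicate 2. TCF7 and APCDD1, which often report WNT activity, fell 4.21-fold and 2.94-fold. AXIN1 did not pass (72 to 80.4 CPM).

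FGF ligands and receptors fell in 10 and rose in 5 of 19 members. FGF4, secreted by pluripotent cells, was the largest fall, from 5.21, 6.14 and 4.95 to 0.413, 0.14 and 0.445 CPM. FGF19 fell 5.34-fold, and FGF2 from 39.9, 40 and 61.3 to 17.7, 18.2 and 19.3 CPM. FGF8, a patterning signal of the forebrain and midbrain-hindbrain boundary, rose from 4.44, 3.27 and 1.94 to 19.8, 20 and 18.6 CPM and the receptor FGFR3 from 26.7, 29 and 15.8 to 130.3, 131 and 119.8 CPM. FGFR1, the receptor with the highest CPM among members that did not pass, stood at 693, 731 and 578 CPM in ESC and 643, 613 and 607 CPM in NPC. Genes that feed back on ERK, the kinase downstream of these receptors, fell in 13 and rose in 3 of 23, and 6 rose without RNA_ESC replicate 3. SPRY4 and DUSP5 went from 391 to 94.3 CPM and from 142 to 31.3 CPM. ETV4, already described, was the largest fall of the list. DUSP4, an ERK phosphatase, rose 4.78-fold and DUSP8 2.18-fold, while DUSP6, a phosphatase that tracks ERK activity in many cells, stood at 236, 242 and 235 CPM in ESC and 215, 202 and 228 CPM in NPC and did not pass.

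In the Hedgehog pathway 12 of 21 members rose and 3 fell. BOC and GAS1, co-receptors for Hedgehog ligands, rose from 11.5, 10.7 and 7.66 to 287, 277 and 267 CPM and from 6.74, 6.94 and 5.72 to 56.7, 60.3 and 51.4 CPM. HHAT, which attaches palmitate to the ligands, rose 10.2-fold to 11.5 CPM. GLI3, whose processed form represses targets, rose from 108, 103 and 112 to 467, 442 and 415 CPM. GLI1, the target gene used most often as a readout of the pathway, fell from 24.3, 26.8 and 16 to 0.788, 0.643 and 0.594 CPM, 33.2-fold lower (adjusted p = 3.27e-06). GLI2 did not pass at 81.8, 88 and 52.2 CPM in ESC and 65.6, 61.5 and 56.3 CPM in NPC.

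Notch pathway genes rose in 18 and fell in 7 of 35 members. The HES and HEY repressors, transcribed in response to cleaved Notch bound to RBPJ, did not move together. HES4 rose from 0.511, 0.718 and 0.306 to 30.4, 29.9 and 22.9 CPM (log2 5.71 ± 0.27, SE; adjusted p = 2.18e-06), the largest rise of the list. HES1 and HES5, chosen after their values were seen, rose from 14.5, 17.9 and 13.7 to 28.5, 31.2 and 29.8 CPM and from 0.408, 0.319 and 0 to 4.65, 4.86 and 3.65 CPM. HES3 fell from 53.9, 71.7 and 27.3 to 7.13, 4.97 and 6.14 CPM and HEY2 from 11.9, 12.9 and 15.6 to 1.88, 1.84 and 1.54 CPM. DLK1, an atypical ligand, rose 33-fold to 90.2 CPM, and MFNG, a glycosyltransferase that modifies Notch, 16.1-fold. MAML2, a co-activator of the cleaved receptor, fell 7.54-fold, and the ligand-activating ligase MIB1 did not pass (142 to 185 CPM).

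Promoter windows of the 3 HES genes that rose are shown because they carry the element bound by RBPJ. They span 250 bases before to 50 after the RefSeq start site (GRCh38.p14) and are written 5′ to 3′ on the strand of the gene. The letters GTGGGAA, searched on both strands, are in capitals, and appear as TTCCCAC where they lie on the opposite strand. The HES4 window is chr1:1000048-1000347 on the minus strand, HES1 is chr3:194135898-194136197 on the plus strand and HES5 is chr1:2530214-2530513 on the minus strand.
HES4: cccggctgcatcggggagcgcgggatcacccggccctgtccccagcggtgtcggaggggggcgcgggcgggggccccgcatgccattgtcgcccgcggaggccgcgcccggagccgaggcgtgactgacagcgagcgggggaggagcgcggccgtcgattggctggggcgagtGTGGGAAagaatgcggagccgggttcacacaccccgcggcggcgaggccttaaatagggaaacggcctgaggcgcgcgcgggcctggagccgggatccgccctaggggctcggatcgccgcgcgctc
HES1: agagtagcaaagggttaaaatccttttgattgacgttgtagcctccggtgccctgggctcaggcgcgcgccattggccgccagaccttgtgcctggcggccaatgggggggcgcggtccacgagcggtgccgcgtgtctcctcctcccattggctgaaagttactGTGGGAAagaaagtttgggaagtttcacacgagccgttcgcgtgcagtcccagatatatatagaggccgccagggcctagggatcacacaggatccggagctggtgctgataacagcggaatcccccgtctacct
HES5: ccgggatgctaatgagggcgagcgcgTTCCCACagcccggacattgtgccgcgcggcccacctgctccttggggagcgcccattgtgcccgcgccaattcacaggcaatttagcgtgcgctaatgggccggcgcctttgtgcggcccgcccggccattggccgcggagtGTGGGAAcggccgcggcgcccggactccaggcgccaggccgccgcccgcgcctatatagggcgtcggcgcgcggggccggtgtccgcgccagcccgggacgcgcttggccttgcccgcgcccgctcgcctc
In HES4 the element starts 77 bases and in HES1 85 bases before the start site, both on the strand of the gene. HES5 holds 2 copies, at 81 bases on the strand of the gene and 224 bases on the opposite one. Of 35116 promoter windows in the RefSeq table, 6.25% held these letters. In the Notch list 6 of 30 genes held them in any of their windows, namely HES1, HES4, HES5, HEY2, HEYL and RBPJ. This count is per gene, and a gene can have several windows, so it cannot be set directly against the share per window. The letters occur in members that rose and in HEY2, which fell. The match is a description of the sequence and not a binding site shown here.

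Retinoid genes rose in 9 and fell in 9 of 21 members. RDH10, which oxidises retinol, fell from 19.4, 18.7 and 21.6 to 2.48, 2.6 and 3.12 CPM and ALDH1A3, which completes the synthesis, from 22.3, 18.4 and 19.7 to 3.9, 3.66 and 3.35 CPM. FABP5, a fatty acid carrier that also binds retinoic acid, fell 5.75-fold. CRABP2, the carrier that delivers retinoic acid to its receptors, rose from 129, 146 and 119 to 621, 595 and 562 CPM, and NRIP1, a corepressor of nuclear receptors, rose 2.87-fold. The induction medium held no vitamin A through its B27 supplement, whereas the content of mTeSR1 is not given in the labels, and its part in these values was not tested.

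The IGF axis rose in 9 and fell in 3 of 17 members. IGFBP5, a secreted binding protein of IGF, made the largest step, from 6.79, 7.54 and 7.96 to 922, 903 and 885 CPM (log2 6.92 ± 0.12, SE; adjusted p = 4.56e-08). PAPPA, a protease that cuts IGF-binding proteins, rose with it from 0.766, 0.917 and 0.664 to 36.8, 38.1 and 41.6 CPM. IGFBP3 rose 4.56-fold, IGFBP4 fell 2.26-fold, and the receptor IGF1R, at 631, 589.8 and 668 CPM in ESC and 580.4, 579 and 570.4 CPM in NPC, did not pass. Hippo pathway genes rose in 11 and fell in 4 of 19: NUAK2 and AJUBA rose 10.5-fold and 7.7-fold, AMOTL2 rose 3.62-fold, and F3, tissue factor, fell 7.62-fold. TEAD2, a DNA-binding partner of YAP, was level at 323 to 343 CPM. Receptor tyrosine kinases of other families and their ligands, by contrast, fell in 20 and rose in 12 of 42. FLT1, a VEGF receptor, went from 109, 106 and 147 to 3.3, 3.21 and 3.59 CPM, MET fell 5.9-fold and the ligand PDGFD 6.07-fold. PDGFRB rose from 7.1, 7.62 and 5.26 to 52.9, 45.3 and 47.2 CPM, and AXL rose together with its ligand GAS6, 3.84-fold and 3.01-fold. Midkine, the growth factor encoded by MDK, stood at 175, 229 and 100.4 CPM in ESC and 238, 237 and 219.7 CPM in NPC and did not pass.

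Guidance genes had more rises than falls in each of 3 lists. Eph receptors and ephrins, contact signals that sort cells at boundaries, rose in 11 and fell in 5 of 22 members. EPHA4 rose from 34.6, 31.7 and 37.5 to 547, 552 and 577 CPM and its ligand EFNA5 from 7.76, 8.06 and 10.4 to 135, 129.7 and 129 CPM, while EPHA7 rose 6.66-fold. EPHA1 fell from 390.3, 393 and 234 to 42.4, 38.7 and 37.4 CPM and EPHB6 4.58-fold; EPHB4 did not pass (246 to 204 CPM). Semaphorins, plexins and neuropilins rose in 18 and fell in 6 of 31, led by the secreted SEMA3E (13.3-fold, to 25.8 CPM) and SEMA3C (7.93-fold). SEMA4A was the largest fall that met the conditions for naming (5.85-fold), and SEMA6A, a transmembrane semaphorin, fell from 1558, 1523 and 1818 to 556, 542 and 543 CPM. PLXNB1 did not pass, at 184, 191 and 96 CPM in ESC and 232, 224 and 206 CPM in NPC, with ESC replicate 3 low. Netrin, SLIT and ROBO genes rose in 9 and fell in 7 of 18. DCC, the attractive netrin receptor, rose from 1.07, 1.2 and 1.02 to 16.4, 17.9 and 17.4 CPM and ROBO3 4.77-fold. UNC5A and UNC5B, repulsive netrin receptors, fell 5.15-fold and 3.81-fold, so the opposing receptors of the same ligand changed in opposite directions, and NTN1, the ligand, did not pass (23.6 to 29.2 CPM).

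**Figure D3:**
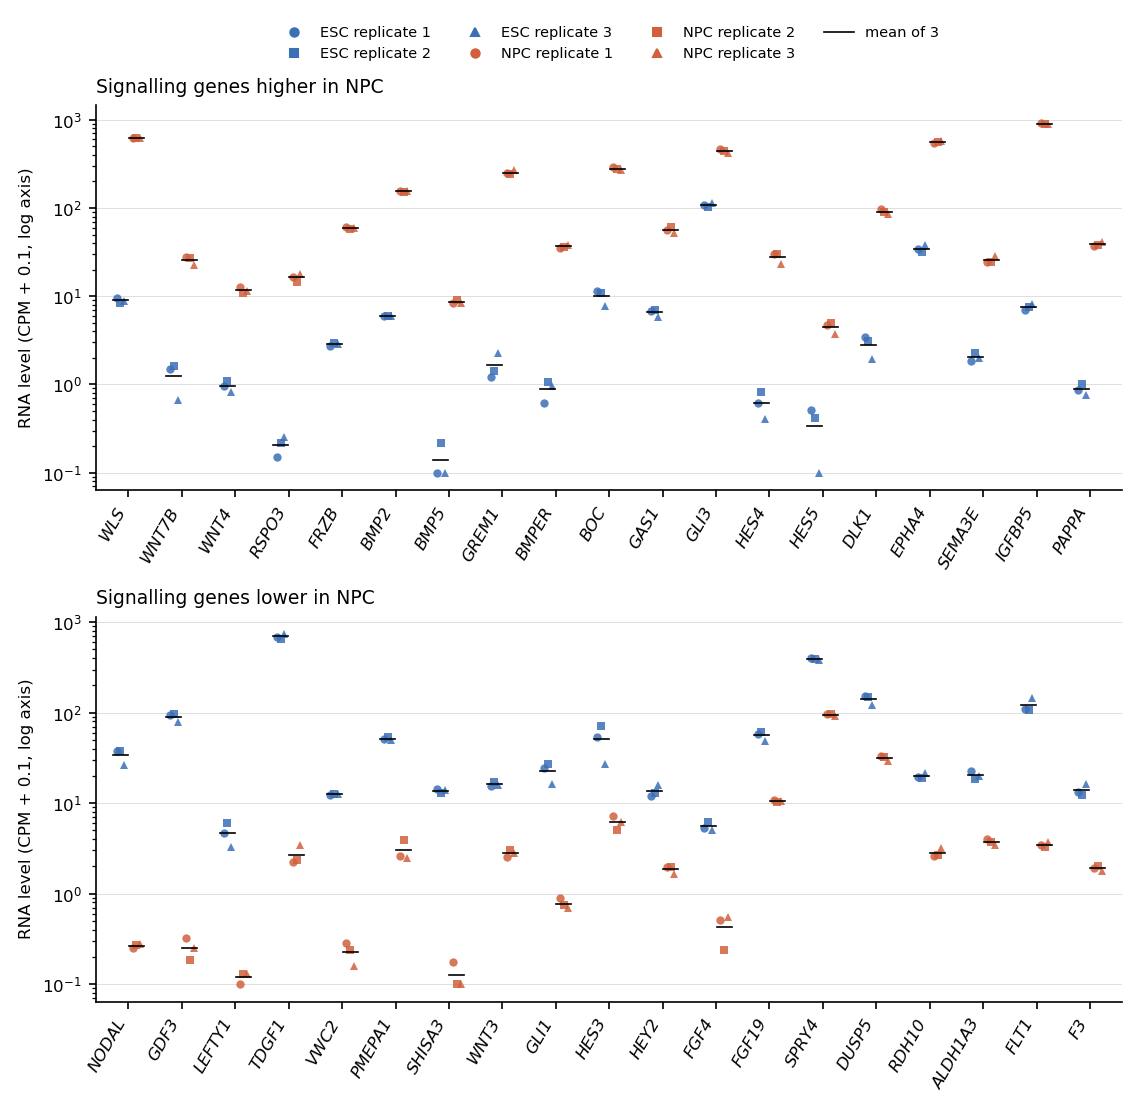
RNA level per library (CPM with 0.1 added, log axis) of 19 signalling genes higher (top) and 19 lower (bottom) in NPC; blue points are ESC, orange points NPC, marker shapes are replicates 1 to 3 and bars are means. WLS goes from a mean of 8.86 to 624 CPM and IGFBP5 from 7.43 to 903 CPM, and the NODAL, GDF3 and LEFTY1 points of NPC lie near the bottom.

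On the cell surface, 224 of 761 tested genes of 12 families rose (29.4%) and 290 fell (38.1%). Among protocadherins, homophilic adhesion proteins of neural cells, 36 of 63 rose and 9 fell, with a median log2 difference of 0.64. PCDH7 rose from 3.06, 2.79 and 2.71 to 67.3, 63.6 and 67 CPM and PCDH18 from 29.9, 29.7 and 40.9 to 214, 216 and 240.3 CPM. PCDHB11 rose 7.09-fold, but clustered protocadherins are near-identical copies, and how reads were split between them is not stated in the labels. No fall of the list met the conditions for naming, and PCDH11X (42.1 to 47.5 CPM) did not pass. Other cadherins rose in 17 and fell in 14 of 33. CDH11, a mesenchymal and neural cadherin, rose from 17.2, 15.5 and 21.1 to 125, 128 and 137 CPM and CDH10 15.8-fold to 6.74 CPM. CDHR1 and the desmosomal DSC3 fell 7.59-fold and 4.66-fold. DCHS1 did not pass at 116, 122 and 58.1 CPM in ESC and 68.9, 65.7 and 61.9 CPM in NPC, where ESC replicate 3 lay among the NPC values.

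Junction genes changed in both directions, to be read against 26.4% higher and 26.2% lower over all genes. Claudins and other tight junction genes rose in 10 (32.3%) and fell in 13 (41.9%) of 31. CRB2, an apical polarity protein of neuroepithelium, rose from 7.61, 8.97 and 3.16 to 72.9, 67.4 and 62.4 CPM and CLDN4 from 24.6, 27.3 and 9.34 to 123, 124 and 114 CPM. CLDN1 and JAM2 fell 14.5-fold and 6.78-fold, and TJP1, the scaffold common to these junctions, was at 219.5, 215 and 315 CPM in ESC and 204, 212 and 223 CPM in NPC without passing. Among tetraspanins and connexins 11 rose and 9 fell of 30. TSPAN15 rose 4.47-fold and TSPAN13 fell 2.4-fold, and GJA1, a gap junction protein, stood at 620.4 and 608 CPM and did not pass. Integrins, receptors for matrix, rose in 6 (31.6%) and fell in 7 (36.8%) of 19. The fibronectin receptor subunit ITGA5 rose from 51.5, 50.8 and 33 to 281, 268 and 254 CPM, and ITGA9 fell from 41.8, 33.1 and 44.4 to 4.28, 4.08 and 4.33 CPM. ITGA7 did not pass (44.6 to 53.8 CPM). Proteoglycans and matrix receptors rose in 11 (30.6%) and fell in 12 (33.3%) of 36. The falls dropped to 7 without RNA_ESC replicate 1, RNA_NPC replicate 1 or RNA_NPC replicate 3 and to 6 without RNA_NPC replicate 2. GPC3 rose from 52.3, 52.3 and 51.2 to 329.7, 317 and 309.7 CPM and SDC2 3.19-fold. PTPRB, a receptor phosphatase known from endothelium, went from 52.2, 52.4 and 68.5 to 0.563, 0.615 and 0.534 CPM, and the matrix proteoglycans VCAN and ACAN fell 3.82-fold and 7.35-fold. PTPRF stood at 586, 598 and 332 CPM in ESC and 756, 739 and 704 CPM in NPC and did not pass (adjusted p = 0.0583).

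Antigens used to sort stem and neural cells fell in 19 and rose in 10 of 43. TNFRSF8, which encodes CD30, a marker of undifferentiated and transformed stem cells, went from 114, 121 and 62 to 2.55, 2.01 and 2.43 CPM, with ESC replicate 3 below the other ESC libraries. CNMD and ADGRG2 fell 52.1-fold and 13.8-fold. FOLR1, a folate receptor, rose from 0.0511, 0.199 and 0.204 to 7.99, 8.97 and 7.42 CPM, BST2, a membrane protein known from antiviral defence, from 48.4, 44.2 and 47.7 to 330.0, 336 and 317 CPM, and the chemokine receptor CXCR4 4.84-fold. ALPL, the phosphatase stained in pluripotent colonies, did not separate the states: 254, 283 and 157 CPM in ESC and 256, 238 and 214 CPM in NPC. Without RNA_ESC replicate 3 its log2 difference was −0.19 (adjusted p = 0.0113), against 0.03 with all libraries.

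Channels and transmitter receptors had more falls than rises in each of 3 lists. Transmitter receptors fell in 34 and rose in 14 of 69, with a median log2 difference of −0.81. The kainate receptor GRIK3 went from 58.8, 56.3 and 53.6 to 1.16, 1.54 and 1.31 CPM, and the GABA receptor subunits GABRA5 and GABRP fell 25.6-fold and 18.1-fold. The AMPA receptor subunit GRIA1 rose from 1.43, 1.52 and 1.68 to 11, 11.7 and 12.2 CPM. CHRNA3 and CHRNB4, subunits of one nicotinic receptor, both rose, 3.97-fold and 3.2-fold. GABBR1 was level, at 86.6, 91.7 and 84.4 CPM in ESC and 88.8, 87.3 and 90.1 CPM in NPC. Potassium channels fell in 31 and rose in 14 of 62, although the rises numbered 8 without RNA_ESC replicate 2 or RNA_NPC replicate 2 and 9 without RNA_NPC replicate 1 or 3. KCNQ3, a subunit of the M-current channel, fell 34-fold and the auxiliary subunit KCNMB4 from 87.4, 88.5 and 94.8 to 6.0, 7.15 and 7.24 CPM. KCNN3, a calcium-activated channel, rose 3.96-fold. Sodium and calcium channels fell in 26 and rose in 16 of 55. SCN9A fell 12.9-fold and CACNA2D1 5.11-fold, while CACNB3, an auxiliary calcium channel subunit, rose from 8.73, 9.37 and 4.9 to 55.2, 51 and 49 CPM. CACNA1H did not pass at 107, 112 and 42.9 CPM in ESC and 127, 113 and 101 CPM in NPC.

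Synaptic organizers and other neural adhesion proteins rose in 25 and fell in 22 of 64. FLRT3 rose from 0.46, 0.997 and 1.53 to 19.6, 22.9 and 22.7 CPM and SLITRK1 from 5.26, 5.38 and 4.03 to 49.8, 49.3 and 49.8 CPM. CNTN1 and LRFN5, both found on neurons, went from 8.83, 6.86 and 8.98 to 0.075, 0.503 and 0.326 CPM and from 23.9, 20.8 and 19.8 to 1.24, 1.15 and 1.48 CPM. Members of the same family could differ in sign, as SLITRK1 (3.34 on the log2 scale) and SLITRK3 (−2.72) did. ADGRL1 did not pass (264 to 335 CPM). Solute carriers, the largest family tested, fell in 97 and rose in 55 of 261, and 109 did not pass. SLC24A2, a sodium-calcium exchanger, fell 31.3-fold and SLC22A23 from 279.9, 269.8 and 217 to 20, 19.8 and 19.7 CPM. SLC2A1, the glucose carrier GLUT1, rose from 215, 217 and 131 to 963, 936 and 868 CPM and SLC16A3, a lactate exporter, 4.26-fold. SLC6A16 rose 12.9-fold. SLC29A1, a nucleoside carrier, did not pass (196 to 189 CPM).

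**Figure D4:**
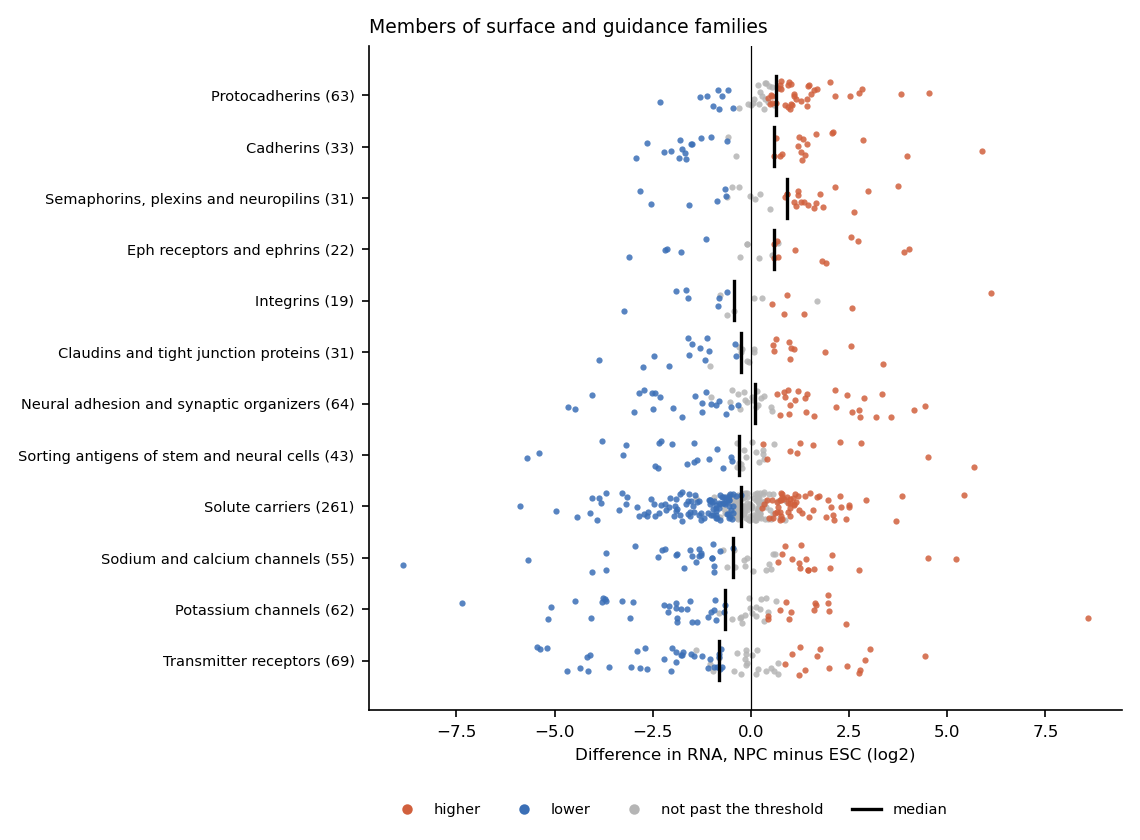
Log2 difference of NPC over ESC for every tested member of 12 surface and guidance families (number tested in brackets); orange points were higher and blue points lower past the threshold, grey points did not pass and black bars are medians. Medians lie above 0 for protocadherins (0.64) and semaphorins (0.92) and below 0 for potassium channels (−0.67) and transmitter receptors (−0.81).

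Noncoding genes were counted from the same libraries. Of 888 tested members of the noncoding lists, 298 rose (33.6%) and 177 fell (19.9%). Named lncRNAs of pluripotent cells were lower in 13 of 16 members and higher in 2, of which 1 was left without RNA_ESC replicate 1, RNA_ESC replicate 2 or RNA_NPC replicate 2. The median log2 difference of the list was −3.58. LINC-ROR, a lncRNA known for its part in reprogramming, had 8.53, 8.77 and 10.3 CPM in ESC and 0.0375, 0.0279 and 0 CPM in NPC, a ratio of 439.9-fold (95% counting interval 121 to 3641). LINC01108 went from 95.1, 85.9 and 88.4 to 0.15, 0.251 and 0.326 CPM and LNCPRESS2 from 17.1, 19.4 and 18.9 to 0.15, 0.196 and 0.208 CPM. ESRG, a primate-specific transcript of pluripotent cells, was at 552, 587 and 513 CPM in ESC and 22.6, 19.3 and 19.4 CPM in NPC, 27-fold lower. CRNDE, a lncRNA expressed in developing brain and in tumours, rose from 1.84, 2.51 and 3.32 to 10.8, 11.9 and 12 CPM, and LINC-PINT did not pass (3.67 to 2.98 CPM). Among other intergenic transcripts LINC00678 fell from 124, 131 and 120.3 to 2.21, 2.74 and 2.52 CPM.

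Named neural lncRNAs moved both ways, 9 up and 7 down of 21. EMX2OS, which lies beside EMX2 on the opposite strand, rose from 0.102, 0.199 and 0.153 to 34.1, 32.6 and 34.9 CPM, in the same direction as EMX2. LINC01198 rose from 0.204, 0.16 and 0.102 to 12.1, 12.5 and 12.6 CPM. LINC00461, which is also on the list of miRNA host transcripts, made the largest fall of the list (log2 −5.89). LINC00599 and C1orf61, host transcripts of miR-124 and miR-9 precursors, fell 13.9-fold and 16.8-fold, and TMEM161B-AS1 did not pass (13.8 to 15.3 CPM). Of 32 abundant or imprinted lncRNAs 9 rose and 12 fell. MEG3, of the imprinted DLK1 locus, had counts in 1 ESC library (0, 0.0399 and 0 CPM) and 7.13, 5.81 and 5.4 CPM in NPC, a ratio of 388-fold (95% counting interval 69.3 to 15336). Its fitted log2 rise was 8.24, and 10.36 without RNA_ESC replicate 2. MEG8, of the same locus, rose from 0, 0.0798 and 0.102 to 5.52, 4.64 and 5.37 CPM, so the 3 genes DLK1, MEG3 and MEG8 were all higher in NPC. NEAT1, the scaffold of paraspeckles, rose from 53.9, 46.7 and 54.1 to 447, 467 and 473 CPM. MALAT1, a nuclear speckle RNA, rose from 1187, 1162 and 1703 to 6720.4, 6631 and 7487 CPM. DANCR, a lncRNA known to hold back differentiation, fell from 117, 128 and 73.8 to 33.1, 35.6 and 34.6 CPM. RN7SL1, the RNA of the signal recognition particle, stood at 3985, 3660.0 and 693 CPM in ESC and 5540.0, 6388 and 6109.7 CPM in NPC and did not pass, with ESC replicate 3 far below the other ESC libraries. Without that library its log2 difference was 0.65 (adjusted p = 2.88e-13).

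SNHG14, the long host transcript of the Prader-Willi region that carries the SNORD116 snoRNAs, fell from 3269.7, 2924 and 3453 to 1602, 1590.5 and 1593 CPM. SNORD116-17 fell from 13.1, 12.8 and 11.3 to 1.91, 1.96 and 1.28 CPM, 7.22-fold lower where the host was 2.02-fold lower, a difference that was not tested. It is a near-identical copy among its neighbours, so its count is uncertain. In all, 13 of 88 snoRNA and Cajal body RNA genes rose and 23 fell, with 8 rises without RNA_NPC replicate 2 or 3 and 15 falls without RNA_NPC replicate 1. SCARNA9 rose 3.97-fold to 7.53 CPM, and SNORA73B did not pass (58.6 to 46 CPM).

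The miR-302 cluster, the best known miRNA locus of pluripotent cells, is shown by its mature sequences because 4 of its 5 precursors give miRNAs with one seed. The sequences are from RefSeq (GRCh38.p14), 5′ to 3′, with bases 2 to 8, the seed that pairs with targets, in capitals.
miR-302a-3p: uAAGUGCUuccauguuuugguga
miR-302b-3p: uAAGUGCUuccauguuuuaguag
miR-302c-3p: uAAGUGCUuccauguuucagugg
miR-302d-3p: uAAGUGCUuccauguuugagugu
miR-367-3p: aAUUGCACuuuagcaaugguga
The 4 miR-302 members share the seed AAGUGCU, and the remaining miRNA has the seed AUUGCAC. They lie together on the minus strand of chromosome 4, from 112647877 to 112648511. Counts at these hairpins come from rRNA-depleted total RNA and may stem from longer precursors, so mature miRNAs were not measured. MIR302B, the largest fall of its list, had 43.5, 37 and 34.6 CPM in ESC and 3.23, 3.44 and 3.26 CPM in NPC (11.6-fold lower, adjusted p = 1.25e-06). Its neighbours are named after their values were seen. MIR302A went from 2.76, 3.31 and 2.5 to 1.28, 1.68 and 1.1 CPM, MIR302C from 4.34, 4.11 and 3.16 to 1.24, 0.419 and 1.04 CPM and MIR367 from 3.83, 3.15 and 2.14 to 0.338, 0.363 and 0.772 CPM. MIR302D was too low to be tested, with a ratio of 22.4-fold (95% counting interval 5.7 to 194) in the same direction. The host transcript MIR302CHG fell from 51.6, 52.6 and 55.7 to 14.7, 14 and 14.7 CPM, 3.68-fold lower. LARP7, the protein-coding gene that contains the cluster on the opposite strand, was at 17.3, 18.7 and 28.7 CPM in ESC and 22.6, 23.2 and 27 CPM in NPC and did not pass (adjusted p = 0.511).

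Over all 68 tested hairpin genes 12 rose and 12 fell, below the shares of all genes. Without RNA_ESC replicate 3, 22 of 83 tested rose. With no filter on low counts 27 rose and 25 fell, and 5 rose where a mean of 1 CPM in the higher state was asked for. Of 29 miRNA host transcripts 9 rose and 10 fell, and the rises numbered 5 without RNA_NPC replicate 2. Among the falls were LINC00461, C1orf61 and LINC00599, named above, of which LINC00461 was the largest of this list too. MIR34AHG, the host of miR-34a, rose from 10.3, 9.25 and 7.91 to 26.6, 26.1 and 23.8 CPM and MIR4435-2HG 3.17-fold. MIR600HG did not pass (31.6 to 30.6 CPM).

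Of 397 antisense lncRNAs tested, 156 rose (39.3%) and 57 fell (14.4%). Without a filter on low counts 164 rose and 87 fell. LHX5-AS1 rose from 1.12, 1.52 and 0.306 to 18.2, 20.4 and 17.6 CPM beside LHX5. JAKMIP2-AS1 rose 7.83-fold to 97.9 CPM while JAKMIP2 fell (log2 −2.29), and CCDC18-AS1 rose 6.16-fold while CCDC18 did not pass. FOXD3-AS1 fell from 71.6, 86.6 and 56.3 to 4.05, 4.58 and 3.32 CPM and TBX5-AS1 from 30.4, 29 and 35.1 to 3.08, 2.88 and 3.35 CPM beside TBX5. OIP5-AS1 did not pass (190.2 to 155 CPM). In 360 pairs where the partner of the same name was also tested, 142 antisense genes rose. Their partners rose in 40 pairs, fell in 33 and did not pass in 69. Of the 51 antisense genes that fell, the partner fell with 33, rose with 2 and did not pass with 16. The labels do not state whether the counting used strand, so reads of a gene and of its antisense partner cannot be told apart. Intergenic LINC genes likewise rose in 94 (35.7%) and fell in 57 (21.7%) of 263, and 100 fell without a filter on low counts. LINC00472 rose 6.58-fold to 22.9 CPM, and LINC00667 did not pass (24.2 to 27 CPM).

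**Figure D5:**
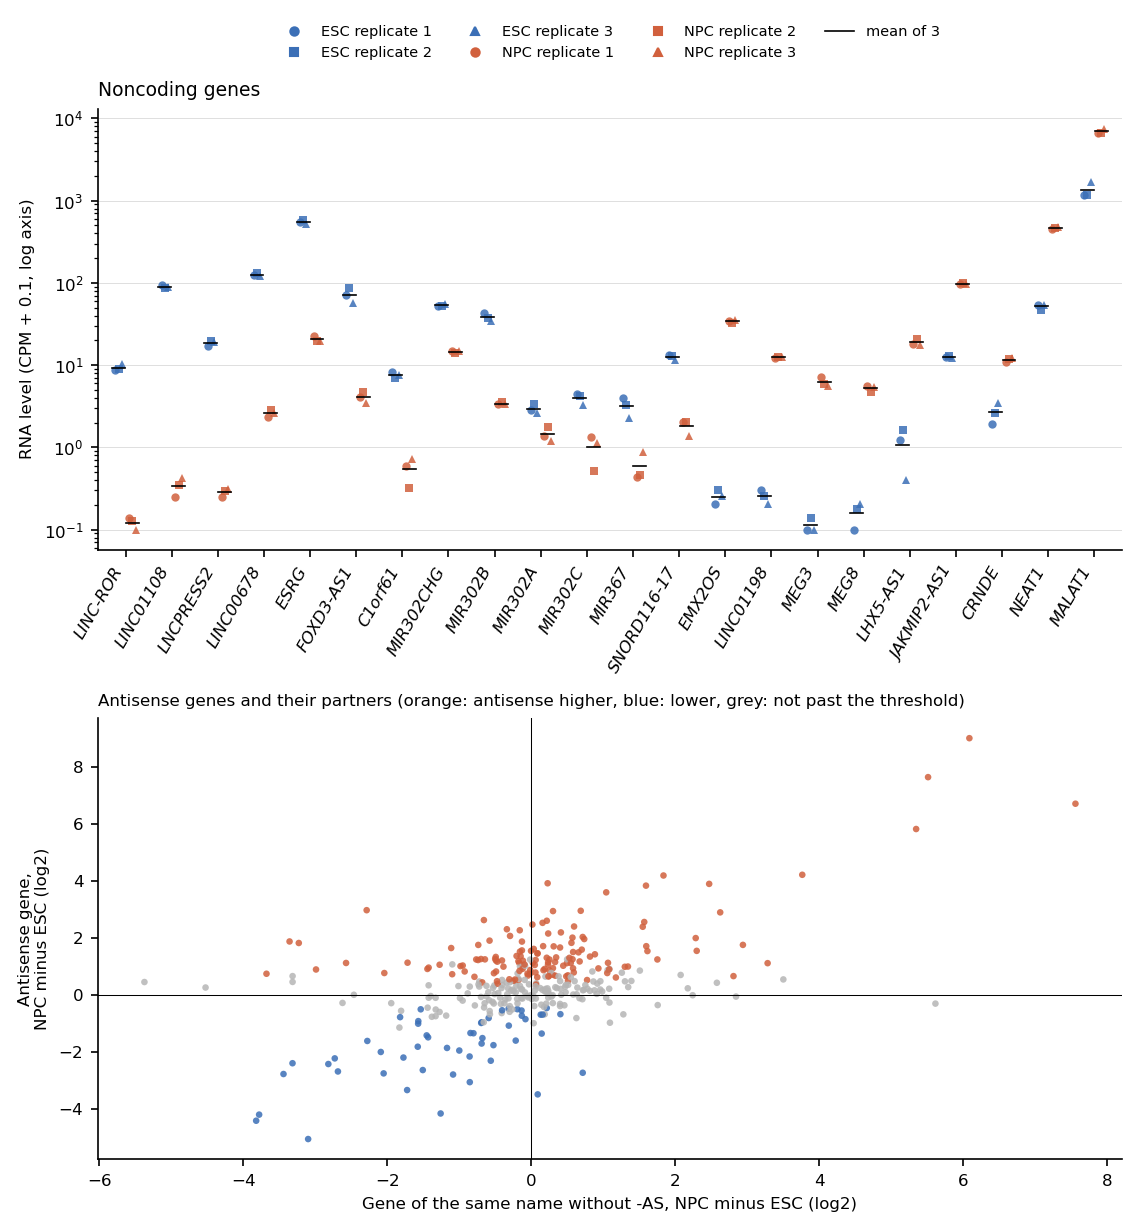
Top: RNA level per library (CPM with 0.1 added, log axis) of 22 noncoding genes, with blue ESC points, orange NPC points, marker shapes for replicates 1 to 3 and bars for means. Bottom: log2 difference of 360 antisense genes (vertical) against that of the partner gene (horizontal); among the 51 antisense genes that fell (blue), 33 partners fell too, while the 142 that rose (orange) lie on both sides of 0.

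By RefSeq gene type, 344 of 939 tested lncRNA genes rose (36.6%) and 181 fell (19.3%), against 25.0% and 29.0% of 14236 protein-coding genes. Pseudogenes rose in 203 and fell in 100 of 669, and their reads may stem from parent genes. LncRNA genes took 1.30% ± 0.0894 of the counts in ESC and 1.73% ± 0.0557 in NPC (SD, n = 3; exact two-sided permutation test, p = 0.1, the smallest that 3 against 3 allows). All 3 NPC libraries (1.70% to 1.80%) lay above all ESC libraries (1.23% to 1.40%). The rise of MALAT1 alone, whose levels are given above, was larger than the rise of this share. The share therefore does not show a gain across lncRNA genes as a class, and it was not computed without MALAT1. Mitochondrially encoded genes took 1.78% ± 0.111 of the counts in ESC and 0.758% ± 0.109 in NPC (SD, n = 3; same exact test, p = 0.1), and 16 of 22 tested ones fell. Protein-coding genes took 94.9% in each state, with a difference of −0.0315 percentage points (exact permutation p = 0.9). With mitochondrially encoded genes left out of the total, the share was 96.6% ± 0.177 in ESC and 95.6% ± 0.112 in NPC (SD, n = 3; same exact permutation test, p = 0.1), a difference of −1.02 percentage points without overlap of the groups.

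Markers of other cell types were measured in the same libraries. Neural crest markers, all 11 of them tested, rose in 8 and fell in 3, and their summed level was 164 to 193 CPM in ESC and 489 to 525 CPM in NPC. Among them PAX7 rose from 17.6, 15.6 and 13.8 to 112, 109 and 106 CPM and SOX10, a defining crest factor, from 1.38, 1.12 and 0.97 to 6.38, 5.48 and 5.85 CPM. The 3 that fell were ETS1, with the largest fall of the list (log2 −2.41), FOXD3 (2.4-fold) and SOX8, described above. Markers of placode and surface ectoderm rose in 6 and fell in 2 of 8 tested, both falls by at least 2-fold, with sums of 345 to 360 CPM in ESC and 496 to 520.4 CPM in NPC. Of these GRHL3 rose from 4.6, 5.26 and 4.49 to 147, 139 and 130.0 CPM, which makes up most of the rise of the sum. DLX3 rose 13.2-fold, whereas KRT14 had 0 counts in all libraries and KRT5 in all but 1. The sum of 13 neuronal markers was 96.4 to 113 CPM in ESC and 359 to 388 CPM in NPC, and MAP2 made up most of the NPC sum (6.59, 5.82 and 7.81 CPM in ESC and 305, 312 and 335 CPM in NPC). Of the 11 tested, 3 rose and 6 fell: DCX and TUBB3 fell 2.79-fold and 2.59-fold, and STMN2 did not pass at 3.32, 3.83 and 4.19 CPM in ESC and 2.74, 4.11 and 3.77 CPM in NPC. Of the other falls, ELAVL4 did not pass without RNA_ESC replicate 1 or 3 or RNA_NPC replicate 1 or 3, and RBFOX3 passed only without RNA_ESC replicate 3 among the fits that left out 1 library. Glial markers fell in 4 of 7 tested, or in 3 without RNA_NPC replicate 1 or 2. Mesoderm and endoderm markers summed to 12.7 to 14.8 CPM in ESC and 4.30 to 4.83 CPM in NPC, with EOMES falling 36-fold and GSC rising 4.55-fold to 2.78 CPM. Trophoblast and amnion markers rose in 3 and fell in 1 of 5 tested. They summed to 71.5 to 73.1 CPM in ESC and 79.7 to 81.9 CPM in NPC, mostly TFAP2C, which did not pass. Fibroblast markers rose in 2 and fell in 1 of 6 tested, or 2 and 3 without RNA_ESC replicate 3. They summed to 228 to 302 CPM in ESC and 224 to 239 CPM in NPC, with DCN at 0 in all libraries. The dorsal and border factors PAX3, PAX7, MSX1, DLX5, TFAP2A and TFAP2B described above rose in the same libraries. All but MSX1 are themselves members of the crest or placode list, so those sums contain them and are not separate evidence. The part of crest and placode cells in those values was not tested.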

How the data were processed

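RNA depleted of rRNA was measured in 3 ESC and 3 NPC libraries. The authors deposited raw counts per gene symbol, which are whole and not normalized. The submitters' processing notes name STAR 2.7.1a, Bowtie 1.2, cutadapt 1.18 and featureCounts 1.6.4, with the builds GRCh38 and hg38. Annotation, strand use and the handling of multiply mapped reads are not stated there, so values of overlapping genes, antisense partners, copies and pseudogenes are uncertain.

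Differences were tested with edgeR 4.0.16 (TMM, filterByExpr, quasi-likelihood F test, Benjamini-Hochberg over all tested genes, threshold 0.05) in R 4.3.3. Alternatives used DESeq2 1.42.0, limma 3.58.1, other scaling and filters, the replicate number as a block, and each library left out in turn. On simulated counts edgeR recovered 58.8% of 2-fold and 95.8% of 4-fold changes, and 8.02% of its calls were false. DESeq2 recovered 69.1% and 95.8% with 22.4% false calls, and limma-voom gave the same values as edgeR. Few genes were changed there, evenly in both directions, so the check does not cover a change as broad as the one found here. Levels are CPM over TMM-scaled totals. The SE is the log2 difference over the square root of F. A fold against 0 counts was set against 3 counts over the group, and 1 to 3 counts were given as a ratio with an exact 95% binomial interval. Both cover counting error only.

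Members and gene lists were chosen with earlier results of these data known. From each list the text names genes among the 3 largest rises and 3 largest falls that passed (2-fold or more, no overlap of groups, mean of 5 CPM or more in one state), always the largest of each, and the member of highest CPM that did not pass; a few genes that this rule gives are not reported here. POU5F1, NANOG, PAX6, SOX1, the 10 largest lncRNA or untyped rises and falls (bare clone names left out) and markers of other cell types could be named too. Gene types, promoters and miRNAs came from RefSeq tables of GRCh38.p14, in which 36273 symbols matched directly, 1009 by synonym and 21768 not.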

Additional observations from a re-analysis of the deposited data

How the results depend on the processing

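Under the alternatives run, most results kept their direction and their side of the threshold. Of 106 counts per list, 38 values in 19 lists and directions moved by over 1.5 times, and of 351 differences of single genes 2 turned around, 2 lost their call and 31 gained one in at least 1 alternative. Without RNA_ESC replicate 3 the log2 differences of ALPL and POU2F1 changed sign, with ranges over all fits that left out 1 library of −0.19 to 0.18 and −0.20 to 0.15, and 22 hairpin genes rose in place of 12. With no filter on low counts 268 noncoding genes fell in place of 177, 27 hairpin genes rose and 25 fell in place of 12 each, 100 LINC genes fell in place of 57 and 87 antisense genes in place of 57, and 5 KLF and SP factors fell in place of 3. Only 5 hairpin genes rose where a mean of 1 CPM in the higher state was asked for. Without mitochondrially encoded genes in the total, the NPC minus ESC share was −1.02 percentage points for protein-coding genes and 0.0748 for pseudogenes. Leaving out each library in turn gave 3804 to 6757 genes higher and 4030 to 6710 lower, with 2538 to 2881 higher and 2679 to 2975 lower by at least 2-fold. The cause of these moves was not tested.

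Same-numbered ESC and NPC libraries deviated together at correlations of 0.109, 0.0936 and 0.267. ESC and NPC libraries of different numbers did so at −0.226 to 0.131. So few libraries cannot settle whether the numbers pair the samples. The labels state no pairing, and none entered the main test. With the replicate block 5103 genes were higher and 4973 lower, against 4913 and 4878, and 5 KLF and SP factors fell in place of 3. A gene under 3 counts in a library, 0.0838 to 0.153 CPM, was not measurable at this depth.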
